A study of Mus musculus with 35 samples.

Results

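The regions described here are open chromatin sites of mouse hepatocytes that lie far from the gene starts listed in the annotation of the deposited table. They were chosen by annotation and distance alone: a region was taken when the deposited table called it intergenic and placed its centre more than 100000 bases (100 kb) from the nearest transcription start site, with no measured value in the rule. Of the 177904 regions of the table, 11021 met it, which is 6.19% of all regions and 18.3% of the 60191 intergenic regions. The median member was 183.1 kb from its start site and the farthest 2071 kb. Upstream of their start site lay 5737 members and downstream 5284. A total of 1988 genes were the nearest to at least 1 member, and for 7891 members that gene was protein-coding.

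Open chromatin far from genes is where many distal enhancers lie, stretches of DNA on which transcription factors assemble and from which they act on a promoter that can be a long way off along the chromosome. In liver such sites are bound by hepatocyte factors of the HNF, FOXA and C/EBP families and by factors that respond to hormones and cytokines. The gene with the nearest start site is a positional label and is often not the gene that a distal site regulates, so gene names below say where a region lies and nothing about its target. Assay for transposase-accessible chromatin with sequencing (ATAC-seq) measures such sites through the Tn5 transposase, which cuts and tags DNA that is free of nucleosomes.

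The study asked how hepatocyte chromatin differs in cancer cachexia, the wasting of the body in tumor disease. All mice carried the genotype CAG-Sun1/sfGFP, Albumin-Cre, in which Cre driven by the albumin promoter turns on a tagged nuclear envelope protein in hepatocytes, and nuclei were drawn out of liver by that tag, so purity rests on this Cre line and on the pull-down. BALB/c mice received C26 cells, which cause cachexia, NC26 cells, which leave weight stable, or phosphate-buffered saline (PBS). C57BL/6N mice received 8025 cells, which cause cachexia, MC38 cells, which leave weight stable, or PBS. Livers were taken at zeitgeber time 9, for C26 and 8025 once body weight had fallen by more than 10%, and a further C26 group is labelled pre-cachexia, with no day of collection in the labels.

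The 9 groups were C26 PBS, C26 pre-cachexia, C26 cachexia, NC26 PBS, NC26 tumor, MC38 PBS, MC38 tumor and 8025 cachexia with 4 mice each, and 8025 PBS with 3 (replicates 1, 2 and 4). Each library came from about 25000 bead-bound nuclei of 1 mouse and was amplified over 12 cycles. Strain and tumor line go together in this design and cannot be told apart between cohorts. Library names fall into 2 series, here A and B: all C26 libraries carry A, all 8025 libraries B, and the NC26 and MC38 cohorts have replicates 1 and 2 in A and 3 and 4 in B.

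Library totals ran from 11345000 to 23754000 tags, except for NC26 tumor replicate 1 with 3474700 tags, and 37.3 to 62.9% of tags lay in the listed regions. Of 12 hepatocyte marker genes, 11 had a promoter region, all but Ttr, with a median of 130 tags per 10000000, against 1 of 8 macrophage, 1 of 6 neutrophil, 1 of 7 endothelial, 3 of 7 stellate cell, 2 of 6 cholangiocyte and 0 of 7 lymphocyte markers. The defining macrophage genes Clec4f and Csf1r, the endothelial Stab2 and Pecam1 and the cholangiocyte Krt19 and Epcam had none. Summed cholangiocyte marker signal was 26.1 to 51.7 in C26 PBS and 57.3 to 70 in C26 cachexia, and 53.2 to 81.8 and 85.3 to 110 in the 8025 groups. Summed stellate cell marker signal was 39.5 to 72.7 and 41.1 to 57.3 in the C26 groups and 66.1 to 84.1 and 42.5 to 59.9 in the 8025 groups. The cholangiocyte sums, which hold Sox9 and Spp1 alone, were thus apart in both cohorts, and the stellate cell sums in 8025 but not in C26. Of these 2 cholangiocyte markers, 1 was called higher in C26 cachexia and 2 in 8025 cachexia. Of the 3 stellate cell markers, 0 were called in C26 cachexia, and 1 was called higher and 1 lower in 8025 cachexia. The neutrophil marker S100a8 measured 2.56 to 9.29 in C26 PBS and 7.2 to 11.9 in C26 cachexia, and 1.41 to 5.14 and 6.4 to 9.89 in the 8025 groups, where it was called higher. The endothelial marker Kdr measured 7.97 to 10.25 and 10.28 to 14.8 in the C26 groups, without overlap or a call, and 4.99 to 9.26 and 7.37 to 11.2 in the 8025 groups. The macrophage marker Adgre1 measured 1.27 to 4.35 and 2.59 to 8.91 in the C26 groups and 1.03 to 3.53 and 3.39 to 8.73 in the 8025 groups, with overlap in both. Of the 11 hepatocyte markers 5 were called higher in C26 cachexia, and their sums overlapped (1032 to 1420 and 1260 to 1496). The part of these markers in the comparisons below was not tested. In such bulk libraries, fewer cells of a type and less signal per cell cannot be told apart.

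Values are tags within 400 bp windows per 10000000 tags of the library, called tags below. Far members were weaker than the average region. Their median over all libraries was 6.95 tags (quartiles 3.90 and 16.5), against 10.9 for all regions, 9.41 for intergenic regions within 100 kb and 45.9 for promoters. A peak was called at 11.9% of members in every library, against 17.1% of all regions and 45.2% of promoters, and at 20.8% of members in just 1 library. The share of each library's region tags that fell in far members was narrow, 3.53 to 3.84% in C26 PBS, 3.49 to 3.57% in C26 cachexia, 3.53 to 3.80% in 8025 PBS and 3.66 to 3.90% in 8025 cachexia. At the distance threshold, the 5 members just inside lay 100004 to 100052 bases from a start site with mean signals of 3.96 to 9.38 tags, and the 5 regions just outside lay 99975 to 99999 bases away with 4.18 to 50.7 tags.

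Repeats made up more of the far set than of the genome-wide list. A repeat was annotated at 27% of members, 27.8% of nearer intergenic regions and 19.9% of all regions. Long terminal repeat (LTR) elements, remnants of endogenous retroviruses, held 12.4% of members, 11.5% of nearer intergenic regions and 6.66% of all regions. The LTR share was thus close to that of nearer intergenic regions. Long interspersed elements (LINE) held 6.13, 4.01 and 3.05% of the same sets. Short interspersed elements (SINE) went the other way with 5.69, 9.51 and 8.14%. CpG islands covered 67 members (0.608%), 2.17% of nearer intergenic regions and 3.01% of all regions. Beyond 500 kb the repeat share was 35.9%, with 18.4% LTR and 9.81% LINE. Members overlapped another listed region in 25.8% of cases, against 32.5% of nearer intergenic regions and 37.1% of all regions.

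The authors' annotation lists fewer start sites than the RefSeq table of the same build (GRCm38.p6, which is mm10), which also holds predicted long non-coding RNAs (lncRNAs). Start sites of that table were on the chromosomes of 10525 members. Of these, 5166 (49.1%) lay over 100 kb from every RefSeq start, 4154 lay 10 to 100 kb away, 933 lay 1 to 10 kb away and 272 within 1 kb. RefSeq gene bodies covered the chromosomes of all 11021 members. Of the 11021, the centre of 1542 (14.0%) fell inside an lncRNA gene, that of 410 inside a protein-coding gene and that of 8948 (81.2%) inside none. A window from 250 bases before to 50 bases after a RefSeq start was overlapped by 148 members, 136 of them at lncRNA windows and 12 at windows of protein-coding genes.

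The sequences of 3 such windows are printed from RefSeq. They overlap the member with the highest signal, a member that rose in C26 cachexia and a member that fell. The window of LOC115490388 (chr6:3182866-3183165, plus strand) overlaps the member with the highest signal. That of Gm46038 (chr8:34456668-34456967, plus strand) overlaps the member that rose, and that of Gm29906 (chr1:70918460-70918759, minus strand) the member that fell. All 3 are lncRNA genes. Capitals mark matches to the motifs searched on both strands, which were AP-1 (TGAGTCA), FOXA (TGTTTAC), C/EBP (TTGCNNAA), D-box (TTANGTAA), HNF4A (CAAAGTCCA), STAT (TTCNNNGAA), E-box (CACGTG), RORE (TAGGTCA), ONECUT (ATTGATT) and, by name, CTCF, HNF1, NF-kB and the glucocorticoid receptor (GR) motif.
LOC115490388: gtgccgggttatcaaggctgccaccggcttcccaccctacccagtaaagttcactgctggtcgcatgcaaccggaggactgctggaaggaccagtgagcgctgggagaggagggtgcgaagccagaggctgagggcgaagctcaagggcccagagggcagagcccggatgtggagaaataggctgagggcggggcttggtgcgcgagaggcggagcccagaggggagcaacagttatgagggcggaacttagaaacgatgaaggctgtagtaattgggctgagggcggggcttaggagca
Gm46038: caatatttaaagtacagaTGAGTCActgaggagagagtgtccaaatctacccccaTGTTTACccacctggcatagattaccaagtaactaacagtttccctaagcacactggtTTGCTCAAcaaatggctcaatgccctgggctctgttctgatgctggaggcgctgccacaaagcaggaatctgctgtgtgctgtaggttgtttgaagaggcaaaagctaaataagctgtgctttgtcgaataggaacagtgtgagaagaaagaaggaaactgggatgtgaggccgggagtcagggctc
Gm29906: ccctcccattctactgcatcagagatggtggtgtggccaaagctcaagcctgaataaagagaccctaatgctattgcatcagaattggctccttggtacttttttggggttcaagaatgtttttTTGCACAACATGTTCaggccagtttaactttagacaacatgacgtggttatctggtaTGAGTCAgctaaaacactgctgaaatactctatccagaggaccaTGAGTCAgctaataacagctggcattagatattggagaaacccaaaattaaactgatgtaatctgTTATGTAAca
The first window had 62.0% G and C, 15 CpG dinucleotides and no match. The Gm46038 window, with 47.3% G and C, had in order AP-1, FOXA and C/EBP matches. The Gm29906 window, with 40.7% G and C, had a C/EBP match that overlaps a GR match, then AP-1 at 2 places and a D-box match. That window shares 139 of its 300 bases with the member described below, so not all of these matches lie within that member. Rises and falls at lncRNA windows were picked by lowest adjusted p in C26 cachexia, 2 of each. The printed rise, at Gm46038, had the lowest adjusted p of the rises. The printed fall, at Gm29906 (limma adjusted p = 0.00069), ranked behind the fall at LOC115486416, which is not printed. The 2 windows picked but not printed had 0 matches. They are at Gm41062 (a rise, log2 difference 1.02, limma adjusted p = 2.3e-05) and LOC115486416 (a fall, -1.17, limma adjusted p = 9.9e-05).

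Over the 142 windows that far members overlap, C/EBP matches were in 16.9% against 10.8% of all 32851 windows, AP-1 in 8.45% against 5.20%, STAT in 14.1% against 8.30%, CTCF in 6.34% against 3.43%, D-box in 7.04% against 2.32% and ONECUT in 7.04% against 2.86%. FOXA stood at 3.52% against 3.65%, HNF4A at 1.41% against 0.475%, RORE at 2.11% against 2.61%, GR at 1.41% against 0.475%, HNF1 at 0% against 0.00913% and NF-kB at 0% against 0.411%. E-box matches were in 3.52% against 7.15%. Their median G and C content was 47.7% against 52.7%, and base composition and the number of windows bear on each of these shares, which are descriptions. The 142 windows belong to 116 genes. Windows of the same gene can share most of their bases, so the same sequence can be counted more than once. Sequence of the other members was not analysed here.

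The 3 members at these windows differed in their behaviour. Differences are on the scale of log2(tags + 1), which understates the change of weak regions. The region over LOC115490388 (chr6:3182969-3183369, nearest listed gene Gm8579) measured 593, 866, 702 and 651 tags in C26 PBS replicates 1 to 4 and 752, 778, 802 and 776 in C26 cachexia, with overlapping groups (log2 difference 0.10 ± 0.13, SE, limma adjusted p = 0.69). The region over Gm46038 (chr8:34456541-34456941, nearest listed gene B930018H19Rik) measured 35.7, 49.1, 55.4 and 30.4 in C26 PBS and 114, 123, 118 and 164 in C26 cachexia (1.56 ± 0.18, limma adjusted p = 2.19e-07). Every cachexia library was above every control there, and the region rose in 8025 as well, from 88.8, 76.5 and 129 to 200, 158, 189 and 186 (0.87 ± 0.20, limma adjusted p = 0.0027). The region over Gm29906 (chr1:70918198-70918598, nearest listed gene Bard1) measured 42.9, 93.1, 45.5 and 43.8 in C26 PBS and 25.4, 17.4, 25.3 and 12.7 in C26 cachexia (-1.46 ± 0.29, limma adjusted p = 0.00069), with no overlap. It fell in 8025 too, from 47.7, 44.1 and 33.7 to 18.6, 16, 43.4 and 15.1 (-0.99 ± 0.32, limma adjusted p = 0.036), where replicate 3 of the cachexia group lay within the control range. An overlapping member on chr1:70918350-70918750 shares 291 bases with the Gm29906 window. That member fell in C26 cachexia (-1.48 ± 0.31, limma adjusted p = 0.0011) and did not pass in 8025 (-0.92 ± 0.33, limma adjusted p = 0.067).

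C26 cachexia against C26 PBS called more far members than any other comparison. Of the 10892 members that passed the filter on low signal, 778 (7.14%) rose and 1470 (13.5%) fell at an adjusted p under 0.05 in limma, adjusted over all 177251 regions tested, while 129 members were too weak to test. Over all regions tested, 6.91% rose, 7.13% fell and 14% were called either way. The share that rose was therefore close to the background and the share that fell was above it. Of the members called, 65.4% were lower, against 50.8% of all regions called. A difference of at least 1 on the log2 scale was found for 513 of the rises and 1134 of the falls. The median log2 difference of all members tested was -0.14, beside -0.01 for all regions. Both a call and no overlap between the 4 cachexia and the 4 control libraries were found at 1690 members (15.5%), against 10.1% of all regions tested, and these were 75.2% of the members called against 71.9% of all regions called. By annotation, promoters had 8.17% higher and 2.52% lower, introns 6.27 and 7.47%, and intergenic regions within 100 kb 7.90 and 7.57%.

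The 6 rises in C26 cachexia that met the rule for naming (adjusted p under 0.05, signal at or above the median of all regions, no overlap between groups, ranked by size, 1 for each nearest gene) reached log2 differences of 3.13 to 3.69. The same rule served the other comparisons within a cohort. A lack of overlap in the comparison that named a region therefore follows from the rule and adds no support. A region 140.1 kb upstream of Tab2, an adaptor of the TAK1 kinase in cytokine signalling, on chr10:8096009-8096409 and in an LTR element, measured 1.71, 5.10, 3.10 and 4.35 tags in C26 PBS and 87.9, 49.8, 55.1 and 40.8 in C26 cachexia (3.69 ± 0.36, limma adjusted p = 2.6e-09). The 2 groups were far apart, and the pre-cachexia libraries lay between them with 40.2, 15.5, 19.5 and 23.6 (2.40 ± 0.36, limma adjusted p = 0.00014). A region 224.8 kb upstream of the uncharacterised 1700085C21Rik, on chr12:83163711-83164111, measured 2.56, 3.19, 1.86 and 2.17 in C26 PBS and 60.5, 19.8, 67.4 and 41.8 in C26 cachexia (3.67 ± 0.47, limma adjusted p = 1.2e-06). It was at the edge of detection in every control and clearly open in each cachexia library. In the 8025 cohort it went from 3.74, 2.82 and 5.92 to 99.1, 112, 75.6 and 96.9 (4.21 ± 0.50, limma adjusted p = 7.5e-07).

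A region 259.0 kb downstream of the microRNA gene Mir6353, on chr1:83959765-83960165, measured 6.83, 7.65, 5.57 and 4.35 in C26 PBS and 51.8, 67.2, 98.5 and 177 in C26 cachexia (3.64 ± 0.41, limma adjusted p = 2e-07). The lowest cachexia library was several times the highest control. In the 8025 cohort the values were 8.73, 3.53 and 5.40 against 151, 115, 242 and 93.4 (4.38 ± 0.44, limma adjusted p = 6.5e-08), a larger estimate than that of any other region named for C26. Tumors without weight loss gave small estimates there that did not pass, 0.74 in NC26 (limma adjusted p = 0.54) and 0.81 in MC38 (limma adjusted p = 0.81). A region 144.0 kb downstream of Slc16a7, a monocarboxylate transporter, on chr10:125164652-125165052 and in an L1 element, measured 6.83, 13.4, 15.5 and 7.97 in C26 PBS and 128, 109, 137 and 125 in C26 cachexia (3.42 ± 0.36, limma adjusted p = 1.7e-07). Its pre-cachexia libraries were at 128, 51.5, 58.9 and 44.8, so all 4 were above the controls and 3 of the 4 below every cachexia library.

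A region 134.7 kb upstream of Hs6st1, an enzyme that sulfates heparan sulfate, on chr1:35933510-35933910, measured 4.27, 12.1, 10.2 and 13.8 in C26 PBS, 135, 69.8, 149 and 69.2 in pre-cachexia and 138, 83.4, 99.8 and 87.1 in cachexia. Values before weight loss (3.19 ± 0.57, limma adjusted p = 0.0032) and in cachexia (3.25 ± 0.57, limma adjusted p = 0.00023) overlapped, both above the controls that these groups share. The 6th, 149.7 kb downstream of 1700129C05Rik on chr14:58992993-58993393, measured 2.35, 7.01, 1.86 and 0.72 in C26 PBS and 33.5, 36.4, 22.4 and 25 in C26 cachexia (3.13 ± 0.36, limma adjusted p = 3.2e-08). None of these 6 calls was lost in any alternative tried.

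**Figure D1:**
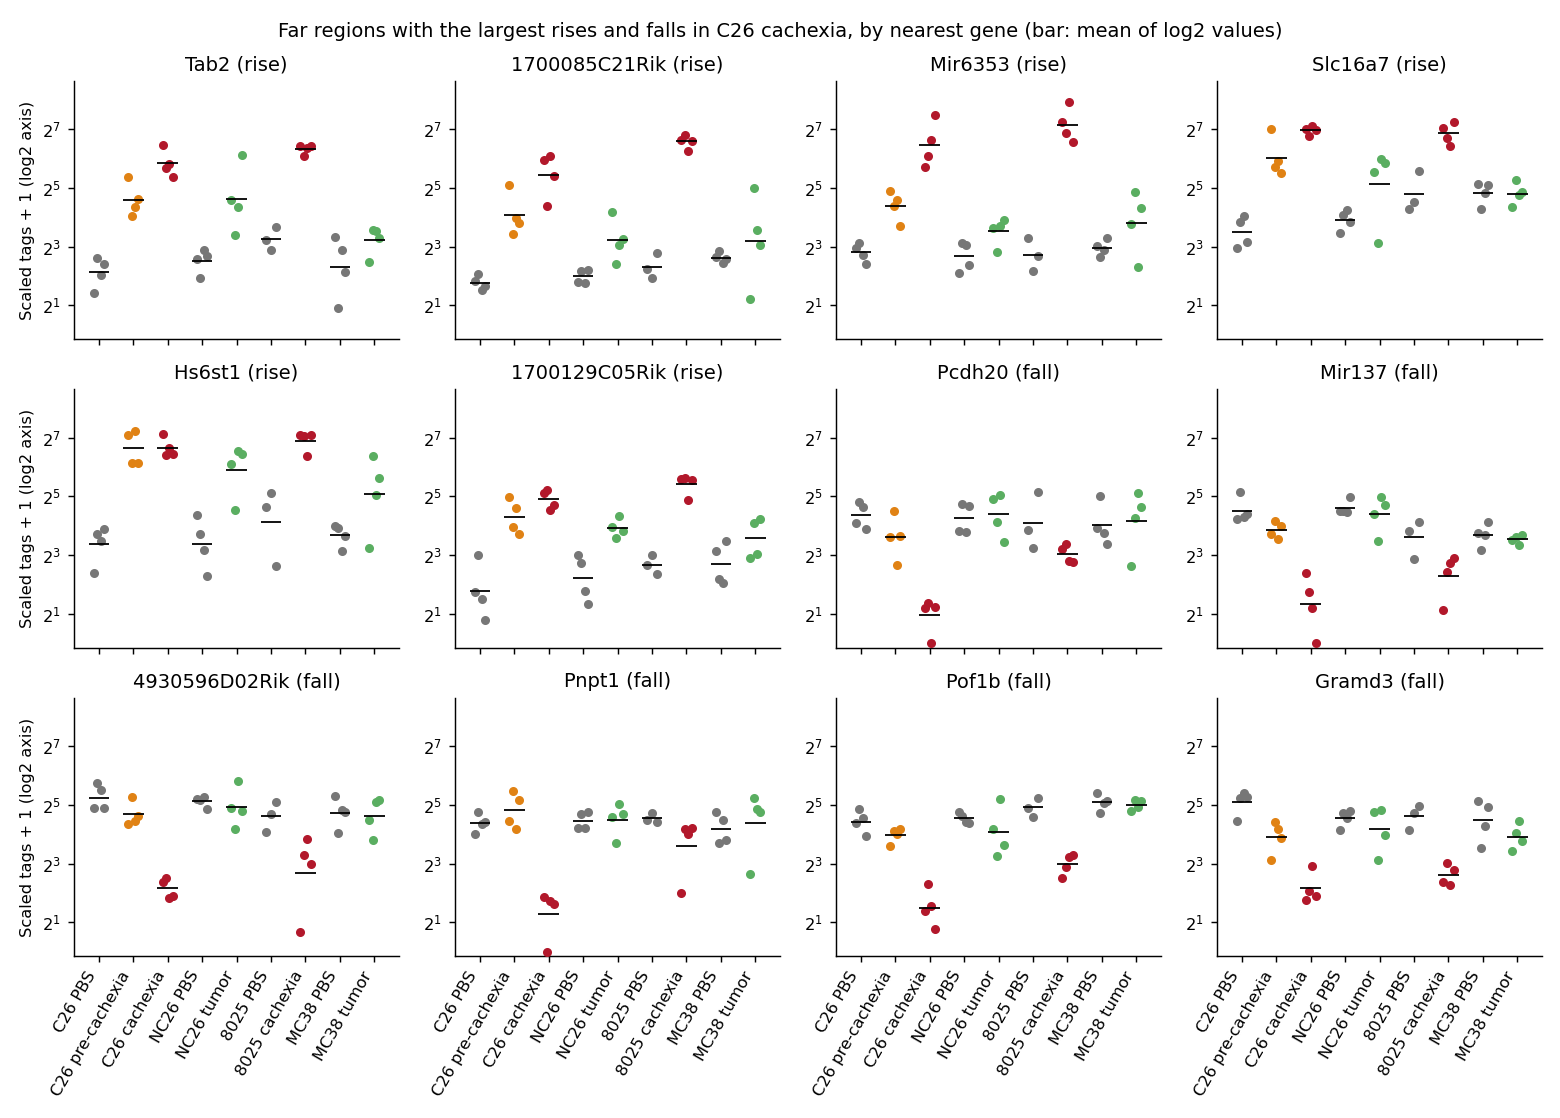
Scaled tags per 10000000 plus 1 (log2 axis) in each of the 35 libraries at the 6 far regions named for the largest rises and the 6 for the largest falls in C26 cachexia, with 1 point per library, 9 groups per panel and a bar at the mean of the log2 values. By the rule of choice, the C26 cachexia and C26 PBS libraries lie apart at every region, while pre-cachexia libraries lie among the cachexia ones at Hs6st1 and among the PBS ones or above them at Pnpt1.

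The 6 falls that met the same rule had log2 differences of -3.00 to -3.49, and 5 of the 6 lay in a repeat. A region 258.9 kb upstream of Pcdh20, a protocadherin, on chr14:88730123-88730523 and in an L1 element, measured 16, 27.1, 24.2 and 13.8 tags in C26 PBS and 1.32, 1.58, 0 and 1.37 in C26 cachexia (-3.49 ± 0.46, limma adjusted p = 2.5e-06). Signal was close to absent in all 4 cachexia libraries. In 8025 the estimate was -1.08 and did not pass (limma adjusted p = 0.17). A region 180.5 kb upstream of the microRNA gene Mir137, on chr3:118253147-118253547 and in an LTR element, went from 17.7, 34.4, 18.6 and 20.3 to 4.22, 2.37, 1.30 and 0 (-3.27 ± 0.33, limma adjusted p = 1.6e-09), with no overlap, and also fell in 8025 (-1.35 ± 0.36, limma adjusted p = 0.0088).

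A region 128.0 kb upstream of Pnpt1, a mitochondrial exoribonuclease, on chr11:29002580-29002980 and in an L1 element, measured 15.2, 25.8, 19.2 and 20.3 in C26 PBS and 2.64, 0, 2.27 and 2.06 in C26 cachexia (-3.15 ± 0.45, limma adjusted p = 1.2e-05). Before weight loss its 4 libraries were at 20.9, 43.7, 17 and 35.2, within or above the controls. A region 188.1 kb upstream of Pof1b, an actin-binding protein, on chrX:112886529-112886929 and in an LTR element, measured 19.6, 28, 22.3 and 14.5 in C26 PBS and 1.58, 3.95, 1.94 and 0.69 in C26 cachexia (-3.01 ± 0.27, limma adjusted p = 3e-11). It had the lowest adjusted p of the 12 regions named for C26, and fell in 8025 from 29, 23.3 and 36.8 to 4.73, 6.30, 8.42 and 8.73 (-1.98, limma adjusted p = 3e-06). The other two were 126.4 kb downstream of 4930596D02Rik (chr14:35685425-35685825, LTR element, -3.15 ± 0.40, limma adjusted p = 1.4e-06) and 258.5 kb upstream of Gramd3 (-3.00 ± 0.29, limma adjusted p = 3.5e-10).

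The share of members that fell in C26 cachexia grew with distance from a start site, while the share that rose shrank. At 100 to 200 kb 11.3% of members fell (687), at 200 to 500 kb 14.4% (533), at 500 to 1000 kb 19.7% (180) and beyond 1000 kb 34.3% (70 of 204). The shares that rose over the same bands were 8.64, 5.73, 4.16 and 1.47%. The median log2 difference of each band moved likewise, from -0.07 through -0.20 and -0.41 to -0.65, against -0.01 for all regions. Among all regions, 7.13% fell. The bands kept this order for both directions in all 20 settings run, with the lower share beyond 1000 kb between 27.9 and 44.9% and that at 100 to 200 kb between 8.02 and 13.9%. The shares that rose are thin at the far end: at 500 to 1000 kb 4.16% became 2.41% without C26 cachexia replicate 3 and 2.74% without replicate 4, and beyond 1000 kb 3 rises became 1 without C26 PBS replicate 1 or C26 cachexia replicate 2.

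8025 cachexia showed the same order with smaller shares of falls. There 6.01, 7.57, 11.2 and 21.6% of members fell over the 4 bands, 44 of 204 beyond 1000 kb, and 10.1, 7.94, 7.01 and 2.45% rose. Lower shares kept the order in all 19 settings and higher shares in 18 of 19. These shares depend on single controls: without 8025 PBS replicate 2, 3.73% fell and 6.25% rose at 100 to 200 kb, 4.36% fell and 5% rose at 200 to 500 kb and 4.31% rose at 500 to 1000 kb. Without replicate 1, 4.97% fell at 200 to 500 kb, and without replicate 4, 4.60% fell there and 7.34% at 500 to 1000 kb. Beyond 1000 kb the 5 rises became 2 without 8025 PBS replicate 1 or 8025 cachexia replicate 3, and 3 without 8025 PBS replicate 2. In the other comparisons, the members beyond 1000 kb had 0 rises and 1 fall before C26 cachexia, 0 and 1 with NC26 tumors and 0 and 0 with MC38 tumors.

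**Figure D2:**
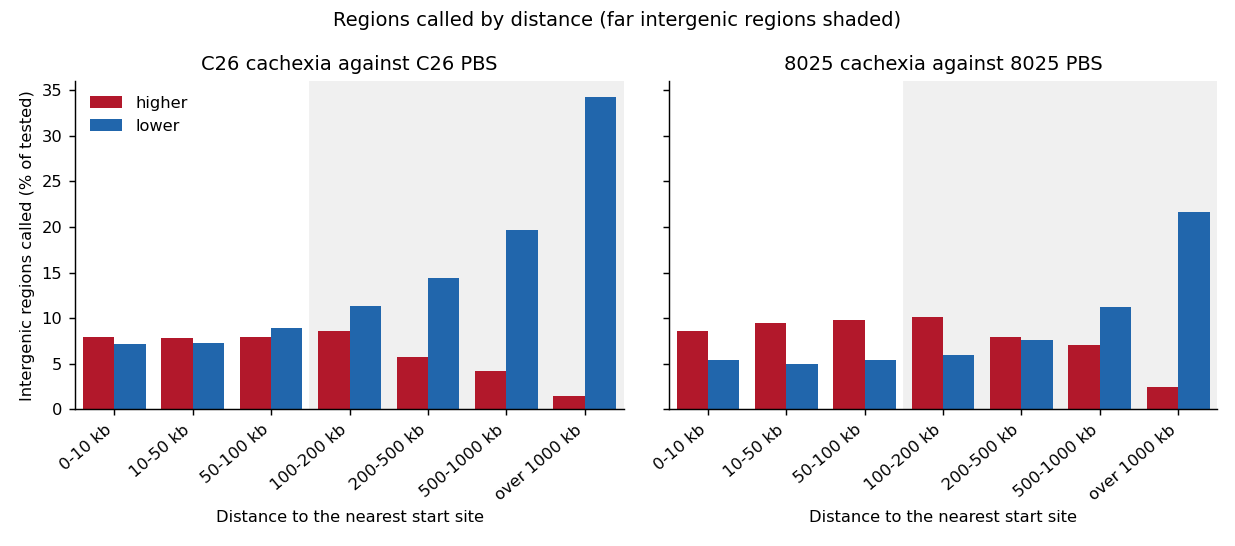
Percent of intergenic regions tested that were called higher or lower (limma adjusted p under 0.05) by distance from the nearest start site, for C26 cachexia and 8025 cachexia against their PBS groups, with the 4 far bands shaded and 3 nearer bands to their left. Lower calls in C26 are at 7.15 to 8.96% within 100 kb and reach 34.3% beyond 1000 kb (21.6% in 8025), while higher calls drop to 1.47 and 2.45%.

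The 204 members tested beyond 1000 kb lay on 19 chromosomes next to 46 genes, 29 of which had at least 1 fall in C26 cachexia and 3 at least 1 rise. Estimates were negative for 174 of them (85.3%) in C26 and for 156 (76.5%) in 8025. Snord14c, a small nucleolar RNA gene on chromosome 10, was nearest to 21 of them, of which 14 fell in C26 and 9 in 8025. Without those, 56 of 183 (30.6%) fell in C26. Next to Rapgef2, a guanine nucleotide exchange factor, 10 of 18 fell in C26, and next to the predicted gene Gm20268 5 of 20. Next to Sorcs3, a sortilin-related receptor, it was 5 of 13, and next to the synaptic adhesion gene Lrrc4c 2 of 13. Next to Dsel, a dermatan sulfate epimerase-like protein, 3 of 8 fell, and next to Cdh11 1 of 8.

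The same pattern was visible without any test in the share of each library's region tags that fell beyond 1000 kb. That share was 0.0863, 0.0844, 0.0864 and 0.112% in C26 PBS replicates 1 to 4, 0.0799, 0.0852, 0.0795 and 0.0769% before cachexia and 0.0561, 0.0585, 0.0566 and 0.0579% in C26 cachexia. Every cachexia library was below every control and every pre-cachexia library. In the C57BL/6N cohort it was 0.0761, 0.0711 and 0.0775% in 8025 PBS and 0.0490, 0.0612, 0.0541 and 0.0548% in 8025 cachexia, again with no overlap. The groups without weight loss overlapped their controls, with 0.0733 to 0.0960% in NC26 PBS, 0.0703 to 0.0901% in NC26 tumor, 0.0597 to 0.0832% in MC38 PBS and 0.0650 to 0.0711% in MC38 tumor. For members 500 to 1000 kb away the C26 groups did not overlap (0.231 to 0.269% and 0.207 to 0.216%), and the 8025 groups did (0.219 to 0.263% and 0.210 to 0.233%).

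**Figure D3:**
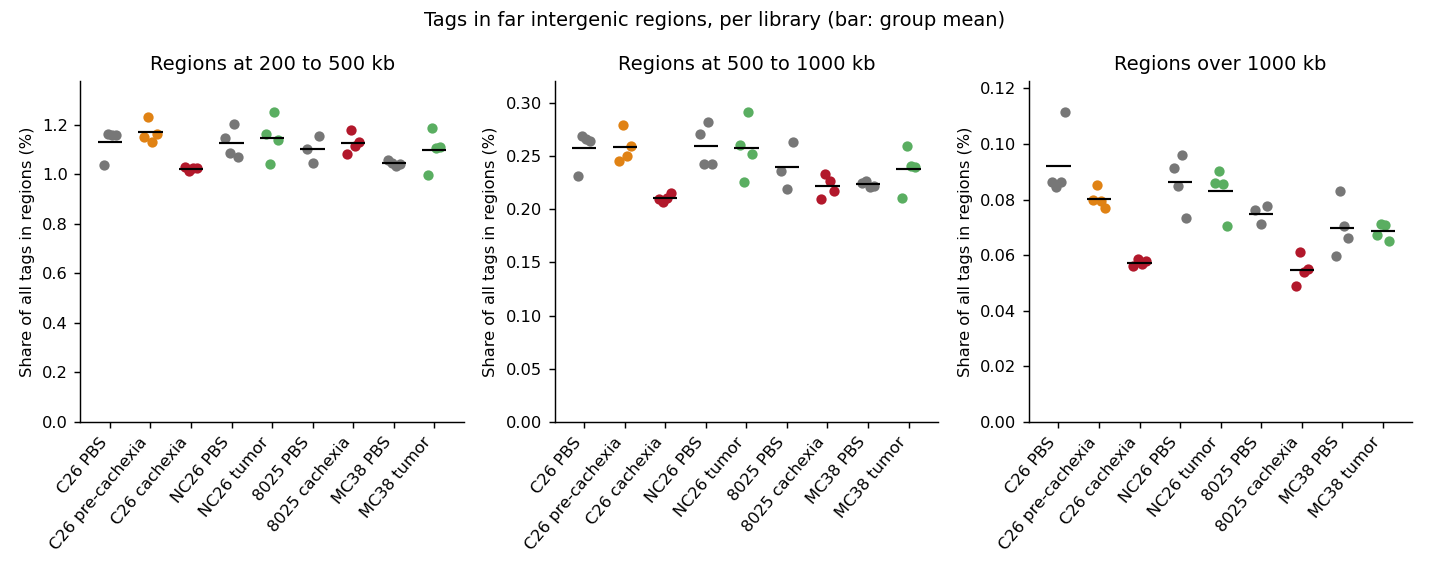
Percent of each library's region tags that lie in far members at 200 to 500 kb, at 500 to 1000 kb and over 1000 kb from a start site, with 1 point per library and a bar at the group mean. In the last panel the C26 cachexia libraries (0.0561 to 0.0585%) and the 8025 cachexia libraries (0.0490 to 0.0612%) lie below all libraries of their own PBS groups.

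The surplus of falls was present at every level of signal. With all regions cut into 4 bins of equal size by mean signal, 8.92% of far members fell in C26 in the lowest bin, against 3.78% of intergenic regions within 100 kb. In the second bin it was 14.5 against 6.36%, in the third 19.2 against 10.2%, and in the highest 16.2 against 11.3%. Rises were level between the 2 sets, with 2.81 against 2.88, 6.06 against 5.87, 10.1 against 10.5 and 16.1 against 14.5%. In 8025 the falls were 2.60 against 1.14, 7.27 against 3.22, 11.3 against 6.65 and 14.0 against 11.6%.

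**Figure D4:**
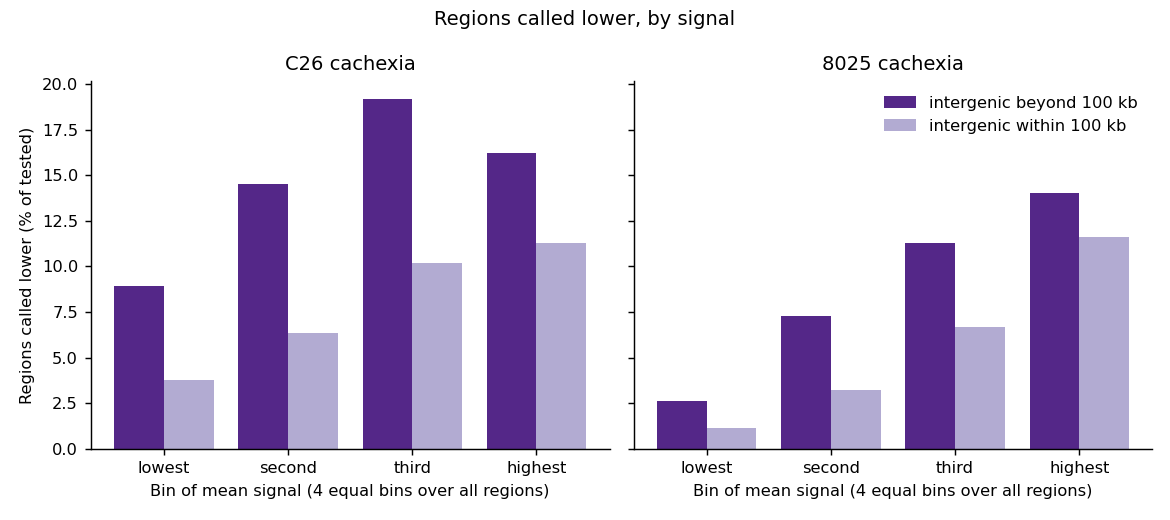
Percent of regions called lower in C26 cachexia and in 8025 cachexia by bin of mean signal (4 bins), for far members and for intergenic regions within 100 kb. Far members are higher in each bin, from 8.92 against 3.78% in the lowest to 16.2 against 11.3% in the highest for C26.

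Members without any RefSeq start nearby carried most of the falls. Among the 5091 tested members over 100 kb from every RefSeq start, 284 rose and 871 fell in C26 cachexia, so 75.4% of those called were lower. Among the 5041 with a RefSeq start 1 to 100 kb away, 428 rose and 516 fell, and among the 270 within 1 kb, 22 rose and 20 fell. Members in LINE elements also leaned to falls, with 38 rises and 147 falls among 665 (22.1% lower), of which L1 elements gave 32 and 131 among 554 (23.6%). LTR members had 62 rises and 203 falls among 1349 (15%), SINE members 38 and 72 among 621 (11.6%), members without a repeat 618 and 1010 among 7900 (12.8%), and CpG island members 2 and 1 among 67. Nearer intergenic LINE regions had 11.8% lower (230 of 1944) and LTR regions 8.81% (494 of 5607). In 8025, L1 members had 32 rises and 51 falls.

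8025 cachexia against 8025 PBS gave 977 rises (8.97%) and 791 falls (7.26%) among members, with 6.99% higher, 5.38% lower and 12.4% called either way over all regions. Both shares were above the background. Among intergenic regions within 100 kb, 9.32% rose and 5.17% fell, so the share of rises was not particular to far members. The split of members between directions was close to the one over all regions (44.7% of called members lower, against 43.5%). Scaling by library totals alone gave 910 rises and 499 falls, 35.4% lower. Without 8025 PBS replicate 2 there were 611 rises and 497 falls. At least 1 log2 unit separated 801 of the rises and 521 of the falls, and 1556 members (14.3%) were called with no overlap between 4 cachexia and 3 control libraries, against 11% of all regions tested. They were 88% of the 1768 members called, against 88.8% of all regions called.

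Among the rises named for 8025 besides Mir6353 and 1700085C21Rik, a second region upstream of Tab2, 229.6 kb away on chr10:8185531-8185931 and inside the lncRNA gene Gm30906, measured 7.48, 4.23 and 2.57 tags in 8025 PBS and 84.9, 72.7, 47.6 and 63.4 in 8025 cachexia (3.56 ± 0.32, limma adjusted p = 2.2e-10). It rose in C26 as well (2.97 ± 0.30, limma adjusted p = 7.6e-10), and the groups were separate in both cohorts, in 8025 by the rule for naming. A region 134.1 kb upstream of Isl1, a homeodomain transcription factor, on chr13:116443541-116443941, measured 3.74, 3.53 and 9.77 in 8025 PBS and 84.6, 76.1, 39.6 and 71.6 in 8025 cachexia (3.38 ± 0.33, limma adjusted p = 1.4e-09). Its C26 values were 7.26, 6.37, 10.5 and 11.6 in PBS and 49.1, 84.6, 73.2 and 119 in cachexia (2.97 ± 0.30, limma adjusted p = 1.7e-09), again with no overlap. Regions near Alx1, a homeobox gene (249.4 kb downstream, chr10:102779224-102779624, 3.25 ± 0.49, limma adjusted p = 4.4e-05), and the microRNA gene Mir490 (174.7 kb downstream, chr6:36596196-36596596, 3.16 ± 0.39, limma adjusted p = 5.5e-07) completed the 6.

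Among the falls, a region 1154.9 kb downstream of Sorcs3 on chr19:49360727-49361127 measured 11.8, 26.1 and 22.1 tags in 8025 PBS and 1.77, 1.94, 1.68 and 1.75 in 8025 cachexia (-2.88 ± 0.33, limma adjusted p = 4.9e-08). All 4 cachexia libraries were close to 0 and to each other. It fell in C26 too (-1.59 ± 0.31, limma adjusted p = 0.00022). A region 302.8 kb downstream of Tlr4, the lipopolysaccharide receptor, on chr4:67130142-67130542 and in an LTR element, measured 15.6, 16.2 and 20.8 in 8025 PBS and 2.37, 0.97, 2.53 and 4.07 in 8025 cachexia (-2.51 ± 0.32, limma adjusted p = 2.8e-07). In C26 it went from 13.2, 17.8, 20.4 and 19.9 to 4.75, 3.95, 4.54 and 3.43 (-1.92 ± 0.30, limma adjusted p = 6e-06). Neither cohort overlapped, in 8025 by the rule for naming. Stxbp6, a syntaxin-binding protein (chr12:45205425-45205825, L1 element), gave -2.61 ± 0.41 (limma adjusted p = 1.8e-05) and, in C26, -2.95 (limma adjusted p = 4e-07).

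The remaining falls named for 8025 included 2 without a call in C26. A region 551.9 kb upstream of B230303A05Rik on chr13:16575171-16575571 measured 24.9, 36.3 and 9.00 in 8025 PBS and 3.25, 3.39, 1.68 and 1.75 in 8025 cachexia (-2.67 ± 0.53, limma adjusted p = 0.00083), and -1.25 in C26 (limma adjusted p = 0.093). A region 642.3 kb upstream of Ppp1r2-ps9 on chrX:15753627-15754027 gave -2.35 ± 0.31 (limma adjusted p = 6.2e-07) in 8025 and -0.70 (limma adjusted p = 0.1) in C26, a difference between cohorts that was not tested. Chd9, a chromatin remodeller (chr8:90716422-90716822, LTR element), gave -2.36 ± 0.32 (limma adjusted p = 1.1e-06) in 8025 and -1.86 (limma adjusted p = 1.2e-05) in C26.

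The C26 and 8025 comparisons share no libraries, so their calls can be set side by side. Both come from the same fit, with a shared estimate of spread for each region, so the calls are not fully independent. Of the C26 rises, 52.1% were called higher in 8025 as well, and they made up 41.5% of the 8025 rises. Both called 516 lower, 35.1% of the C26 falls and 65.2% of the 8025 falls, against 37.2 and 49.2% over all regions (45.8 and 45.3% for rises). Only 6 members were called in opposite directions, and 921 in the same. Beyond 500 kb, 103 members fell in both, 41.2% of the 250 C26 falls and 70.5% of the 146 8025 falls. As a description over regions, which share libraries and depth and are not independent, the log2 differences correlated with Pearson r 0.66 and Spearman rho 0.62 over 10892 members (0.62 and 0.55 over all 177251 regions), and with 0.76 and 0.70 over the 3773 members at or above the median signal.

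**Figure D5:**
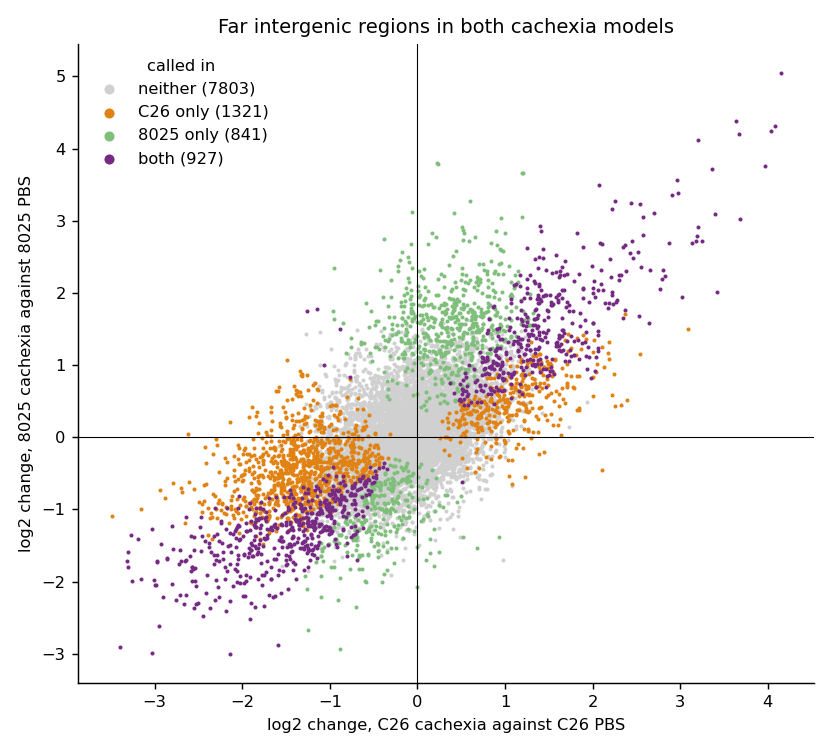
Log2 difference in 8025 cachexia (vertical) against log2 difference in C26 cachexia (horizontal), each against its PBS group, for 10892 far members, with 1 point per member coloured by the models in which it was called. Of the members, 927 were called in both models (921 in the same direction), 1321 in C26 alone and 841 in 8025 alone.

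Before weight loss, far members leaned to rises. C26 pre-cachexia against C26 PBS gave 175 rises (1.61%) and 33 falls (0.303%), with 0.97% higher, 0.296% lower and 1.27% called either way over all regions, so rises were above the background and falls at it. Lower calls were 15.9% of the members called, and 4.23% (181 rises, 8 falls) when libraries were scaled by their totals alone. These counts turn on few libraries: leaving out pre-cachexia replicate 1 gave 84 rises and 7 falls, C26 PBS replicate 1 gave 95 and 8, C26 PBS replicate 3 gave 114 and 17, and pre-cachexia replicate 4 gave 17 falls. Beside Hs6st1, Tab2 and the others above, a region 102.5 kb upstream of Spred1, an inhibitor of Ras signalling, on chr2:117018357-117018757, measured 5.55, 5.10, 4.95 and 13.0 tags in C26 PBS and 68.6, 43.4, 51.1 and 37.7 before cachexia (2.62 ± 0.42, limma adjusted p = 0.00065), with no overlap by the rule for naming.

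The 3 falls named before weight loss were near the threshold. A region 102.3 kb upstream of the listed start of Bach2, a transcription repressor of lymphocytes, and inside that gene's RefSeq body, on chr4:32314902-32315302, measured 19, 20.7, 16.1 and 17.4 in C26 PBS and 8.04, 4.23, 10.8 and 7.38 before cachexia (-1.31 ± 0.30, limma adjusted p = 0.015), and its adjusted p was 0.074 without C26 PBS replicate 1 and 0.1 without pre-cachexia replicate 2. Groups did not overlap, by the rule for naming. A region 133.3 kb upstream of the non-coding Platr10 on chr3:75788833-75789233, in an LTR element, went from 23.7, 27.7, 30.3 and 31.9 to 11.3, 21.9, 9.46 and 7.95 (-1.30 ± 0.29, limma adjusted p = 0.012, and 0.064 without pre-cachexia replicate 4). The Gramd3 region went from 20.9, 36.3, 41.5 and 37.7 to 7.77, 20.4, 17.3 and 13.6 (-1.29 ± 0.29, limma adjusted p = 0.012, and 0.12 without pre-cachexia replicate 1 and 0.054 without C26 PBS replicate 3).

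Tumors without weight loss gave few calls. NC26 tumor against NC26 PBS gave 31 rises (0.285%) and 4 falls (0.0367%) among members, with 0.146% higher, 0.0401% lower and 0.186% either way over all regions, and 1264 members at an unadjusted p under 0.05. Rises numbered 14 without NC26 tumor replicate 1, the library with the least depth, 73 without replicate 2, 19 without NC26 PBS replicate 3 and 18 without replicate 4. Falls numbered 1 without NC26 PBS replicate 1 or 3 or NC26 tumor replicate 1, 7 without NC26 PBS replicate 4, 18 without NC26 tumor replicate 2 and 19 without replicate 3. The first Tab2 region measured 4.98, 2.80, 6.48 and 5.46 tags in NC26 PBS and 23, 9.42, 19.5 and 68.7 in NC26 tumor (1.99 ± 0.36, limma adjusted p = 0.0069, and 0.073 without NC26 tumor replicate 1), all 4 above the controls. It was 0.052 with these 2 groups alone and 0.19 in library series A alone.

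Another rise lay 243.2 kb upstream of Tshz2, a zinc finger homeobox gene, on chr2:169390278-169390678, with 3.32, 7, 4.05 and 5.46 in NC26 PBS and 23, 13.3, 38.3 and 22.9 in NC26 tumor (1.94 ± 0.27, limma adjusted p = 0.00014, and 0.094 in library series A alone). A region 161.2 kb downstream of B930018H19Rik on chr8:34478908-34479308 had 1.66, 1.40, 4.86 and 4.25 against 20.2, 6.85, 10.8 and 14.6 (1.73 ± 0.26, limma adjusted p = 0.00035, 0.15 with these 2 groups alone and 0.06 in library series B alone). Neither pair of groups overlapped, by the rule for naming. The single fall named, 1154.0 kb downstream of Sorcs3 on chr19:49359864-49360264 and next to the Sorcs3 region above, went from 25.3, 28.7, 25.1 and 30.9 to 15.8, 5.57, 21.5 and 10.5 (-1.24 ± 0.29, limma adjusted p = 0.045). Its call was lost in 14 settings, among them the omission of any 1 NC26 PBS replicate or of NC26 tumor replicate 1, 2 or 4.

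MC38 tumor against MC38 PBS gave 11 rises (0.101%) and 0 falls among members, with 0.0181% higher, 0.000564% lower and 0.0186% either way over all regions. At an unadjusted p under 0.05 there were 824 members, and edgeR gave 8 rises and 0 falls. Rises numbered 1 without MC38 PBS replicate 2, 3 without MC38 tumor replicate 2 or 4, 4 without MC38 tumor replicate 3 and 6 without MC38 PBS replicate 4, and 1 fall appeared without MC38 tumor replicate 1. A region 130.9 kb upstream of Nampt, the enzyme that makes nicotinamide mononucleotide, on chr12:32689243-32689643, measured 5.20, 5.29, 8.85 and 9.43 tags in MC38 PBS and 17.9, 22.4, 32.5 and 40.5 in MC38 tumor (1.76 ± 0.27, limma adjusted p = 0.0021, 0.25 in library series A alone and 0.086 in B alone). By the rule for naming, these groups did not overlap. The Nampt region had an estimate of 1.45 in 8025 (limma adjusted p = 0.00045) and 0.80 in C26 (limma adjusted p = 0.039).

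A region 140.9 kb upstream of Igf1, the growth factor of the growth hormone axis, on chr10:87717118-87717518, measured 8.45, 1.76, 7.58 and 8.76 in MC38 PBS and 12.4, 25.2, 21 and 18.4 in MC38 tumor (1.49 ± 0.29, limma adjusted p = 0.038). The adjusted p was 0.25 without MC38 PBS replicate 2, 0.28 without MC38 tumor replicate 2, 0.1 without replicate 3, 0.11 without replicate 4 and 0.075 with a replicate block. A region 100.4 kb upstream of Ptpn1, the phosphatase of the insulin receptor, on chr2:167831688-167832088, measured 11.1, 4.41, 14.5 and 15.5 in MC38 PBS and 23.1, 31.6, 23.6 and 51.1 in MC38 tumor (1.43 ± 0.28, limma adjusted p = 0.038). Without MC38 PBS replicate 1, 2 or 4 that p was 0.052, 0.2 and 0.073, and without MC38 tumor replicate 1, 2 or 4 it was 0.06, 0.26 and 0.21. The Ptpn1 region rose in the other 3 models too, by 1.58 in C26 (limma adjusted p = 4.9e-05), 2.29 in 8025 (limma adjusted p = 5.3e-07) and 1.23 in NC26 (limma adjusted p = 0.039).

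Whether a cachexia effect differed from the effect of the weight-stable tumor in the same strain was tested as a difference of effects. For C26 minus NC26, 132 members (1.21%) were higher and 325 (2.98%) lower, with 1.04% higher, 1.1% lower and 2.14% either way over all regions, so again the lower share stood above its background. Higher calls numbered 77 without NC26 PBS replicate 1 and 85 without C26 cachexia replicate 4. Lower calls numbered 210 without NC26 PBS replicate 1, 216 without C26 cachexia replicate 3, 183 without replicate 4 and 198 without NC26 tumor replicate 3. The Mir6353 region differed by 2.89 ± 0.58 (limma adjusted p = 0.0062), the Isl1 region by 2.71 ± 0.43 (limma adjusted p = 0.00026) and the Pcdh20 region by -3.51 ± 0.65 (limma adjusted p = 0.0031). At the Isl1 region NC26 PBS measured 10.8, 7.70, 8.92 and 5.46 tags and NC26 tumor 5.76, 7.71, 21.8 and 12.7, so those groups overlapped where the C26 groups did not.

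A region 611.9 kb upstream of Cntnap5b, a contactin-associated protein, on chr1:99160627-99161027, had the lowest adjusted p of the 6 named for this difference (-3.39 ± 0.42, limma adjusted p = 4.6e-06). It measured 14.1, 28, 26 and 14.5 tags in C26 PBS and 3.17, 1.58, 1.94 and 1.03 in C26 cachexia, against 24.1, 9.10, 13.4 and 18.8 in NC26 PBS and 25.9, 16.3, 35 and 19.1 in NC26 tumor. The C26 groups did not overlap and the NC26 groups did, and the 8025 estimate was -0.73 (limma adjusted p = 0.13). Near Pnpt1, 2 members within 10 kb of each other went opposite ways: the one at 29002580 by -3.08 ± 0.64 (limma adjusted p = 0.0087) and the one on chr11:28993424-28993824 by 2.58 ± 0.44 (limma adjusted p = 0.00066). The second rose in C26 (1.31 ± 0.31, limma adjusted p = 0.0025) and stood at -1.27 ± 0.31 in NC26 without passing (limma adjusted p = 0.073).

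For 8025 minus MC38, 132 members (1.21%) were higher and 142 (1.30%) lower, with 0.922% higher, 0.779% lower and 1.7% either way over all regions. With edgeR the split was 115 higher and 211 lower. Higher calls numbered 77 without 8025 PBS replicate 1, 52 without replicate 2, 87 without 8025 cachexia replicate 3 and 78 without MC38 tumor replicate 3. Lower calls numbered 75 without 8025 PBS replicate 1, 58 without replicate 2, and 84 without MC38 tumor replicate 2 or 3. The 1700085C21Rik region differed by 3.69 ± 0.69 (limma adjusted p = 0.0036), Mir6353 by 3.57 ± 0.61 (limma adjusted p = 0.0019) and Isl1 by 3.43 ± 0.45 (limma adjusted p = 1.9e-05). Lower were B230303A05Rik by -3.56 ± 0.73 (limma adjusted p = 0.0079), Tlr4 by -2.78 ± 0.43 (limma adjusted p = 0.00028) and a region 265.2 kb downstream of Wdr72 on chr9:74375378-74375778 by -2.63 ± 0.64 (limma adjusted p = 0.025). Wdr72 lost its call without 8025 PBS replicate 1 (0.082) or 2 (0.11), MC38 PBS replicate 2 (0.062) or 3 (0.058), MC38 tumor replicate 2 (0.056) or 8025 cachexia replicate 4 (0.055).

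A large share of far members differed between the PBS groups of the BALB/c and C57BL/6N cohorts. BALB/c PBS minus C57BL/6N PBS gave 1196 members higher (11%) and 748 lower (6.87%), with 6.42% higher, 7.04% lower and 13.5% either way over all regions. With all PBS libraries the surplus lay with regions more open in BALB/c, and their share grew with distance, from 9.52% at 100 to 200 kb through 12.4 and 13.4% to 17.6% beyond 1000 kb, in this order in 25 of 28 settings. The balance of directions differed between the library series. Series A alone gave 572 members higher (5.36%) and 318 lower (2.98%), against 3% and 2.81% of all regions. Series B alone gave 479 higher (4.44%) and 513 lower (4.76%), against 2.59% and 4.04% of all regions, so higher calls did not outnumber lower ones there. Over its 4 distance bands series B had 3.79, 4.81, 7.02 and 5.97% higher and 4.77, 4.84, 4.90 and 2.49% lower, with more lower than higher calls up to 500 kb. With both series, among members over 100 kb from every RefSeq start, 679 were higher in BALB/c and 331 lower. A peak had been called in at least 3 libraries of 1 strain and in none of the other for 447 members (4.06%) in BALB/c (20 libraries), against 2.6% of all regions, and for 521 (4.73%) in C57BL/6N (15 libraries), against 3.14%. The comparison joins the PBS groups of both cohorts of each strain. Strain goes together with cohort there, so they cannot be told apart.

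A region 210.1 kb downstream of Gm5114, a predicted gene, on chr7:39202859-39203259 and in an L1 element, measured 46.7 to 75.2 tags in the 8 BALB/c PBS libraries and 0 to 0.67 in the 7 C57BL/6N ones (5.67 ± 0.19, limma adjusted p = 3.7e-27). It carried a called peak in all 20 BALB/c libraries, tumor-bearing ones included, and in 0 of the 15 others. A region near Zfp619, a zinc finger gene, on the same chromosome (chr7:40044170-40044570, LTR element) differed by 4.84 ± 0.23 (limma adjusted p = 6e-22) with the same 20 and 0 peaks. In the other direction, a region 102.4 kb downstream of Tmem100 on chr11:90132585-90132985 (-4.42 ± 0.30, limma adjusted p = 1.9e-15) had peaks in 0 and 15 libraries, and one 161.7 kb downstream of B930018H19Rik on chr8:34478425-34478825 differed by -4.88 ± 0.23 (limma adjusted p = 2.8e-21).

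The other two regions named for strain had libraries that stood apart. Near Adcy2, an adenylate cyclase (264.4 kb upstream, chr13:69263760-69264160, -5.03 ± 0.77, limma adjusted p = 2.4e-05, and 0.05 in library series A alone), C57BL/6N PBS libraries had 65.6 to 126 tags and 18 of 20 BALB/c libraries 0 to 4.86. The other 2 BALB/c libraries, C26 cachexia replicate 3 with 78.4 and NC26 tumor replicate 2 with 49.2, were inside or near the C57BL/6N range. Near Dcdc2c, a doublecortin-domain gene (275.1 kb downstream, chr12:28273083-28273483, LTR element, 5.08 ± 0.48, limma adjusted p = 4.6e-09), C26 PBS measured 37.6, 59.9, 56.3 and 40.6 and C26 cachexia 56.0, 13.4, 15.6 and 13.0. Replicate 1 of the cachexia group lay with the controls there and the other 3 below them (-1.27 ± 0.58, limma adjusted p = 0.16).

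Far members often lay in runs. With neighbours at most 12.5 kb apart, 453 runs held at least 5 members and together 3564 (32.3%), the largest 40, while 2900 (26.3%) stood alone. Among 4356 pairs of neighbouring members that do not overlap, both were called in C26 cachexia in 347, and in 334 of these in the same direction. For 8025 it was 243 of 250. Summed tags over a run count a tag more than once where members overlap. The run of 40 near Ly86, the partner of a toll-like receptor homologue (chr13:37450723-37543271), had 2 rises and 4 falls in C26, with 773 ± 106 summed tags (SD, n = 4) in PBS and 758 ± 31.7 in cachexia. The run of 37 near 3110009F21Rik (chr12:109954162-110054572) had 6 rises and 0 falls in C26 and 8 rises in 8025, with 595 ± 95.9 and 868 ± 129 in the C26 groups. The run of 32 near Eea1, an early endosome protein (chr10:95758176-95840251), had 5 rises and 1 fall in C26 and 3 and 1 in 8025. Its summed tags were 1203 ± 190 and 1522 ± 162 in the C26 groups.

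Of the runs, 7 were chosen after their values were seen, as those with the most calls one way, so their counts carry no test. Next to Snx10, a sorting nexin (chr6:51656889-51732933), 12 of 22 members rose in C26 and 5 in 8025. Its summed tags were 311, 677, 380 and 546 in C26 PBS, 787, 814, 638 and 794 before cachexia and 859, 750, 824 and 879 in cachexia, and cachexia lay above every control. Next to Ankrd55, an ankyrin repeat gene (chr13:112051913-112100967), 10 of 16 rose in C26 and 6 in 8025, and near Irf2bp2, a transcription co-repressor (chr8:126720490-126745125), 8 of 12 rose in C26 and 4 in 8025. Near Lpp, a focal adhesion protein (chr16:24183272-24260589), 10 of 31 fell in C26 and 5 in 8025, and near Bach2 (chr4:32285097-32315302) 8 of 11 fell in C26 and 3 in 8025.

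The run near Snord14c, 13 members over 19.3 kb on chr10:47639928-47659265, had 10 falls in C26 and 6 in 8025. Its summed tags were 279, 391, 248 and 376 in C26 PBS, 306, 451, 425 and 322 before cachexia and 153, 86.6, 108 and 104 in cachexia. In the C57BL/6N cohort they were 328, 456 and 225 in 8025 PBS and 141, 198, 136 and 147 in 8025 cachexia. Cachexia libraries were below every control in both cohorts, while pre-cachexia libraries were not. NC26 PBS (314 to 372) and NC26 tumor (244 to 414) overlapped, as did MC38 PBS (309 to 486) and MC38 tumor (385 to 570). Near Nr2f2, a run of 20 (chr7:70499212-70549579) had 8 falls in C26 and 6 in 8025, with 563, 821, 684 and 555 in C26 PBS against 455, 511, 425 and 471 in C26 cachexia.

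Of the 20461 genes that were nearest to any region, 1988 (9.72%) had a far member. Of 25 hepatocyte transcription factors, 8 were the nearest gene of 120 members, of which 12 rose (10%) and 18 fell (15%) in C26 (median -0.13) and 9 rose (7.5%) and 7 fell (5.83%) in 8025. For comparison with these and the following lists, 7.14% of all far members rose and 13.5% fell in C26 (median -0.14) and 8.97 and 7.26% in 8025, and 6.91 and 7.13% of all regions in C26 and 6.99 and 5.38% in 8025. The transcription factor list was near the far shares in each of these. Nr2f2, an orphan nuclear receptor of the COUP-TF family, had 52 of them, 2 up and 10 down in C26. Its region on chr7:70515554-70515954 measured 47.2, 71.1, 58.8 and 39.5 tags in C26 PBS and 17.7, 23.3, 13.0 and 6.17 in C26 cachexia (-1.94 ± 0.22, limma adjusted p = 2.1e-08), without overlap. In C26, Foxa2, a pioneer factor of liver enhancers, had 4 rises and 1 fall among 18. Prox1, a homeobox factor of hepatocytes, had 4 rises and 0 falls among 9 there, and Nr2f1 0 and 3 among 8. In 8025, Foxa2, Prox1 and Nr2f1 each had 0 rises and 0 falls, and Nr2f2 had 4 rises and 6 falls.

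Of 23 genes of the glucocorticoid, growth hormone and insulin axis, 11 had 99 members, with 12 rises and 12 falls in C26 (12.1% each, median -0.07) and 7 and 9 in 8025 (7.07 and 9.09%), so falls in C26 were near the far share. Pik3r1, the regulatory subunit of phosphoinositide 3-kinase, had 39, of which 2 rose and 7 fell in C26. Its region on chr13:101877155-101877555 measured 52.7, 58.6, 42.7 and 39.1 tags in C26 PBS and 19.5, 11.9, 6.81 and 7.54 in cachexia (-2.14 ± 0.21, limma adjusted p = 3.2e-10), and also fell in 8025 (-1.49, limma adjusted p = 5.2e-06). Another, on chr13:101997399-101997799 in an L1 element, fell by 2.03 on the log2 scale in C26 (limma adjusted p = 3.2e-07) and by 2.02 in 8025 (limma adjusted p = 2.5e-06). In C26, Klf9, a glucocorticoid-induced Krüppel-like factor, had 5 rises and 0 falls among 12, and Nr3c1, the glucocorticoid receptor, 3 and 1 among 13. Igf1 had 0 and 2 among 9 in C26, and Ghr, the growth hormone receptor, 0 and 2 among 6. In 8025, Klf9 had 1 rise and 0 falls, Nr3c1 2 and 1, Igf1 2 and 0, and Ghr 0 and 1.

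Of 30 genes of inflammation and stress signalling, 5 had 43 tested members, with 3 rises (6.98%) and 13 falls (30.2%) in C26 (median -0.09) and 4 (9.3%) and 7 (16.3%) in 8025. The rises were near the far share and the falls above it. Tlr4 gave 9 of those falls among its 13 members, and 5 of 13 fell in 8025. Inhbb, a subunit of activin B, had 2 rises and 1 fall among 14 in C26, and 3 and 0 in 8025. Its region on chr1:119292163-119292563 measured 15.8, 15.9, 13.0 and 15.6 in C26 PBS and 39.3, 41.9, 32.4 and 44.2 in C26 cachexia (1.28 ± 0.22, limma adjusted p = 4.1e-05). All cachexia libraries were above all controls, and 8025 gave 1.40 ± 0.24 (limma adjusted p = 4.1e-05). Of 18 clock genes, Nfil3, a repressor of D-box sites, alone had members, 2 of 4 higher in C26 (chr13:53102322-53102722, 1.81 ± 0.49, limma adjusted p = 0.0077, and chr13:53098909-53099309, 0.84 ± 0.30, limma adjusted p = 0.048). The second call was lost without any 1 of the 4 C26 PBS replicates or C26 cachexia replicate 1, 3 or 4, with adjusted p from 0.059 to 0.13.

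Of 32 genes of lipid and glucose metabolism, 3 had 43 tested members, with 6 rises (14%) and 3 falls (6.98%) in C26 (median 0.01) and 4 and 4 in 8025 (9.3% each). The share of falls in C26 was that of all regions and below the far share. All 6 rises lay near Ppargc1a, a coactivator that drives gluconeogenic and mitochondrial genes in fasting, which had 25 members. Its region 514.1 kb downstream on chr5:51039632-51040032, with a peak in all 35 libraries, measured 19.2, 40.2, 30.3 and 30.8 tags in C26 PBS and 73.7, 70.8, 129 and 84.0 in C26 cachexia (1.49 ± 0.20, limma adjusted p = 1.2e-06). The groups did not overlap, and 8025 gave 0.59 (limma adjusted p = 0.073). An overlapping region on chr5:51039878-51040278 rose in both, by 1.75 ± 0.25 (limma adjusted p = 1.4e-06) and 1.12 ± 0.27 (limma adjusted p = 0.003). Ppp1r3b, a glycogen-targeting subunit of protein phosphatase 1, had 16 members, 0 higher and 1 lower in C26.

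No member with a very high signal was called in C26 cachexia among the 5 highest. Besides the LOC115490388 region with 684 tags on average and one that overlaps it with 518 (chr6:3182813-3183213), they were near Pex2, a peroxisome biogenesis gene, with 507 (chr3:5860471-5860871, annotated as a ribosomal RNA repeat), near Eea1 with 310 (chr10:95773606-95774006) and near Ppp1r3b with 283 (chr8:35211590-35211990). C26 estimates at these 5 were 0.08 to 0.22. The Eea1 region (0.22 ± 0.09, limma adjusted p = 0.084) measured 254, 313, 240 and 226 in C26 PBS and 346, 289, 270 and 344 in C26 cachexia, and its adjusted p was 0.045 without C26 PBS replicate 1, 0.047 without C26 cachexia replicate 2 and 0.043 without replicate 3.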

How the data were processed

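Hepatocyte ATAC-seq was measured in 35 mouse livers in 9 groups of 4 (3 for 8025 PBS). The deposited signal values are tags within 400 bp of each merged peak, scaled by the authors to 10000000 tags per library with HOMER's annotatePeaks.pl on mm10, per the file headers. The submitters' processing notes name BWA (0.7.5a-r405), SAMtools and HOMER. The deposited score of each merged region comes from the authors' peak merging, per the file headers, and was not used. Signal times library total gave whole read ends (0.5 tag) for 100.0% of values within 0.05.

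Log2(signal + 1), divided by TMM factors, was fitted with limma 3.58.1 in R 4.3.3 (robust trended variance, 9 groups, library series as a covariate), with p adjusted over 177251 regions, after edgeR 4.0.16 filterByExpr (min.count 10, min.total 15) removed 653 regions. edgeR's quasi-likelihood test on recovered read ends called 12602 regions higher and 12589 lower in C26 cachexia, against 12251 and 12634 in limma. Named regions are the 6 largest rises and 6 falls in each cachexia model and 3 and 3 in every other comparison (called, signal at or above the median, 1 per nearest gene, no overlap within a cohort), the 5 strongest members, the 3 largest runs and, for each gene list, its 2 members of lowest p. Members and lists were chosen with earlier results of these data known. Each library came from a different animal, per the labels, so p-values measure the spread between mice. RefSeq start sites for the chromosome of 496 members were not used here, and sequences of the regions themselves and motifs in them were not analysed here. Sums and figures used Python 3.11.15, pandas 2.3.3, numpy 2.4.6 and matplotlib 3.10.9. The limma fit was checked on simulated data for C26 cachexia against C26 PBS, with the same dispersion at every region. Changes were placed outside the weakest regions, so detection of changes at the weakest members was not covered. Duplicate treatment is not given in the sources used here.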

Additional observations from a re-analysis of the deposited data

Results flagged for a closer look

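In groups of 4 libraries, 1 library stood apart from the other 3 in 9 of 105 groups examined, where chance alone gives about 1 in 20. Examined were 27 regions and 3 measures per library (total tags, far share of region tags and median tags of far members). Far members held 3.53% of region tags in C26 PBS replicate 1, against 3.83 to 3.84% in the other three. The median member had 7.10 tags in 8025 cachexia replicate 1, against 7.51 to 7.58. In 8025 cachexia replicate 3 the Hs6st1 region measured 81.5 tags against 132 to 135, and the 1700129C05Rik region 28.2 against 46.3 to 48.5. The Pcdh20 region was at 0 in C26 cachexia replicate 3 against 1.32 to 1.58, and the Mir137 region at 34.4 in C26 PBS replicate 2 against 17.7 to 20.3. The second Tab2 region measured 75 in C26 cachexia replicate 1 against 37.2 to 42.5, the first Sorcs3 region 36.2 in C26 PBS replicate 4 against 21.1 to 22.9, and the Ppp1r2-ps9 region 7.43 in C26 PBS replicate 3 against 14.5 to 14.9.

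Cachexia effects differed from those of weight-stable tumors by a test of the difference (limma interaction contrasts) at 132 members higher and 325 lower for C26 minus NC26, and at 132 higher and 142 lower for 8025 minus MC38. The regions named for the first difference were Mir6353 (2.89 on the log2 scale), Isl1 (2.71), Pnpt1 at 28993424 (2.58), Pcdh20 (-3.51), Cntnap5b (-3.39) and Pnpt1 at 29002580 (-3.08). Those for the second were 1700085C21Rik (3.69), Mir6353 (3.57), Isl1 (3.43), B230303A05Rik (-3.56), Tlr4 (-2.78) and Wdr72 (-2.63). Isl1 and Mir6353 were named in both. These comparisons share no libraries, but they share the fit and its estimate of spread for each region.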

How the results depend on the processing

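Of 75 named values, 61 kept their direction and their side of the threshold under every alternative that applied to them. Of the 1564 values recomputed for them, 1494 did so, 66 lost the call, 4 gained it and 0 reversed. Shares of members called were recomputed 420 times, and 332 stayed within 1.5 times the value in the report. Limits: shares in C26 pre-cachexia, NC26 and MC38 rest on few calls and on single libraries, MC38 had 0 falls, 129 members were too weak to test, and 4340 of the 10892 tested lie in the lowest of the 4 signal bins, where the share that fell in C26 was smallest.

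With members beyond 500 kb alone, C26 cachexia had 3.67% higher and 22.4% lower, pre-cachexia 0.627% higher, 8025 13.1% lower, NC26 0.179% lower, C26 minus NC26 0.537% higher and 4.74% lower, and 8025 minus MC38 2.78% lower. Beyond 200 kb, NC26 had 0.0623% lower and MC38 0.0415% higher. With members over 100 kb from every RefSeq start, an alternative chosen after seeing the data, NC26 had 0.137% higher and 0.0589% lower. With a mean of at least 5 tags, pre-cachexia had 2.89% higher and 0.5% lower, NC26 0.515% and 0.0143%, MC38 0.157% higher and C26 minus NC26 1.83% higher. A pseudocount of 4 gave 0.615% lower in pre-cachexia, 0.0551% lower in NC26 and 2.30% higher in 8025 minus MC38.

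Scaling by library totals gave 0.0734% lower in pre-cachexia, 4.58% lower in 8025, 0.0643% higher in MC38, 0.578% higher and 1.69% lower in C26 minus NC26 and 0.835% lower in 8025 minus MC38, and moved the median of all regions in NC26 by 0.102 on the log2 scale. Array weights gave 3.49% higher and 1.35% lower in pre-cachexia, 0.00918% lower in NC26, and 1.93% higher and 2% lower in 8025 minus MC38. edgeR gave 0.165% higher and 0.00918% lower in NC26. The groups of the comparison alone gave 2.80% higher and 0.928% lower in pre-cachexia, 0.138% and 0% in NC26 and 0.0228% higher in MC38. Without the library series term MC38 had 0.0643% higher. Series A alone gave 0.0468% higher and 0.0843% lower in NC26, 0.00937% higher in MC38, and 5.36% higher and 2.98% lower between strains. Series B alone gave 0.0186% lower in NC26, 0% higher in MC38 and 4.44% higher and 4.76% lower between strains. Members more open in BALB/c thus did not outnumber the others there, while both shares stayed above those of all regions (2.59 and 4.04%). The cause was not tested for any of these.

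Replicate numbers are shared between groups, but same-numbered libraries correlated at -0.155 to 0.0767 in their deviations, so they share only a number. A replicate block gave 761 rises and 1459 falls in C26 cachexia, 803 and 585 in 8025, and 0.0551% lower in NC26.

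Leaving out 1 library at a time gave 5.56 to 6.43% higher and 10.9 to 12.8% lower in C26 cachexia, 0.772 to 1.98% and 0.0643 to 0.322% in pre-cachexia, 5.57 to 8.45% and 4.53 to 6.27% in 8025, 0.129 to 0.671% and 0.00919 to 0.174% in NC26, and 0.00919 to 0.110% and 0 to 0.00918% in MC38. It gave 0.707 to 1.32% higher and 1.68 to 3.49% lower in C26 minus NC26, 0.474 to 1.55% and 0.529 to 1.72% in 8025 minus MC38, and 9.00 to 11.3% and 5.93 to 6.95% between strains.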
